A study of Salvia miltiorrhiza with 5 samples.

Results

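The predicted miRNAs of *S. miltiorrhiza*, every name in the miRNA table that starts with PC, were described here. They were 40 of the 488 names, on 43 of the 650 entries, and lay on 24 of the 607 precursors (pre-miRNAs). Each precursor is a stretch of 1 expressed sequence tag (EST), a partial cDNA sequence of the plant. A 5p and a 3p name were paired where they shared the EST and its start and end, which gave 19 precursors with 2 names and 5 with 1 name. For these names arm means the 5p or 3p label, whether or not the regions face each other in the structure. The small RNA came from root, stem, leaf and flower of field-grown plants in florescence, cultivated for 8 months, with 1 library per tissue and no treatment, and 1 degradome library was made from a mixture of these tissues. The labels name no cultivar, and do not say how many plants went into a library. With 1 library per tissue no value has a replicate, so every difference below is one between libraries.

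Plant miRNAs are cut from the stem of a hairpin in a longer transcript, in most cases by DICER-LIKE 1. The cut releases a duplex of the miRNA and its partner from the opposite arm, the miRNA*, which face each other and leave short 3′ overhangs on both sides. An ARGONAUTE protein keeps the miRNA, AGO1 mostly those that start with U, and uses it to find transcripts, which it can cut opposite the middle of the miRNA. A new miRNA is therefore usually judged on its hairpin, on reads from both arms that fit such a duplex, and on cut transcripts in the degradome. Small RNAs of 24 nt are mostly made by another enzyme, DICER-LIKE 3, and act on DNA methylation.

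Sequences of names that differed between libraries, and of PC-3p-115345_10, whose levels lay close together in the 4 libraries, are given first, 5′ to 3′ in DNA letters as deposited, with the seed (bases 2 to 8) in capitals.
PC-3p-59794_23: cTTCATCCgggcgtcgattga
PC-5p-376893_3: cGTGGCAAtatctgcagaaga
PC-3p-240808_5: aGGGAGTTcgcggcgaagc
PC-3p-294250_4: tGAACGGTcaggatctggac
PC-5p-468508_3: gGATTCGTgacgtttagagatt
PC-3p-115345_10: gCCGCGGCcgctggaactcagcgc
PC-3p-479939_3: cAGCCTGTggaacgccga
PC-5p-280154_4: aATCAGGTcttgaaagca
PC-3p-131493_9: aGGTGAAGgagctcaagaa
The 40 names held 39 distinct sequences and 39 distinct seeds, since PC-5p-72144_18 and PC-3p-72144_18 are the same sequence under both arm labels. Apart from that pair no predicted names shared a seed. Only PC-3p-1488134_1 shared its seed with other names of the table, which were 2 variants of miR319, a family known to target TCP transcription factors.

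The predicted miRNAs were rare. They had 647 reads over the 4 libraries, 0.0401% of all reads in the table, and the 5 most abundant names held 51.9% of them. A name had a median of 9 reads, from 0.5 to 83, beside a median of 1 read over all 488 names. Reads need not be whole because the authors divided a read over the entries it matches. In root the predicted names had 223 reads (exact 95% Poisson interval 195 to 254), which was 0.0447% of the root reads in the table. In stem they had 119 reads (98.6 to 142) and 0.0313%, in leaf 83 reads (66.1 to 103) and 0.0349%, and in flower 222 reads (194 to 253) and 0.0449%. These intervals, like all below, cover counting error only. Precursor CV167603 alone gave 89 of the flower reads, and without it flower had 133. Reads in all 4 libraries were found for 7 names, in 3 libraries for 13, in 2 for 12 and in 1 library for 8. No read was found in leaf for 21 names, in root for 19, in flower for 11 and in stem for 10, and a count of 0 allows up to 3 reads as a one-sided 95% limit (the two-sided intervals of 0 reads end at 3.69).

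The question for each name was whether its reads were spread over the libraries as their depth would give. Levels are normalized counts, the reads of a library times the authors' factor for it (root 0.547, stem 0.715, leaf 1.90, flower 1.41). A name passed at p under 0.01 without adjustment, by the chi-squared test for 5 names and by the exact multinomial test for the other 35. Of the 40 predicted names 17 (42.5%) passed, where 34.3% of all names with a whole read did. Among names with at least 10 reads, 11 of 18 predicted names (61.1%) and 82.5% of all names passed. Under 10 reads 6 of 22 predicted names (27.3%) and 7.1% of all names with a whole read, the predicted ones included, passed. These shares were not matched for reads: predicted names had a median of 9 reads and other names a median of 1. A name with 1 read cannot pass, since its lowest exact multinomial p is 0.118, for a read in leaf. Of the names that passed, leaf was the highest library for 6 (15% of the 40), flower for 6 (15%), root for 5 (12.5%) and stem for 0. Among all names with a whole read these shares were 10.8%, 14.7%, 6.29% and 2.45% in the same order. With Benjamini-Hochberg adjustment over all names 14 predicted names passed. The split between leaf and flower rested on the factors: with depths taken from the clean reads, the counts past the test were 10 for flower, 6 for root and 1 for leaf. Of the 17 names, 14 passed with each of 3 scalings (the authors' factors, clean reads and reads in the table), and 10 of these were highest in the same library each time, 5 in root, 4 in flower and 1 in leaf.

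**Figure D1:**
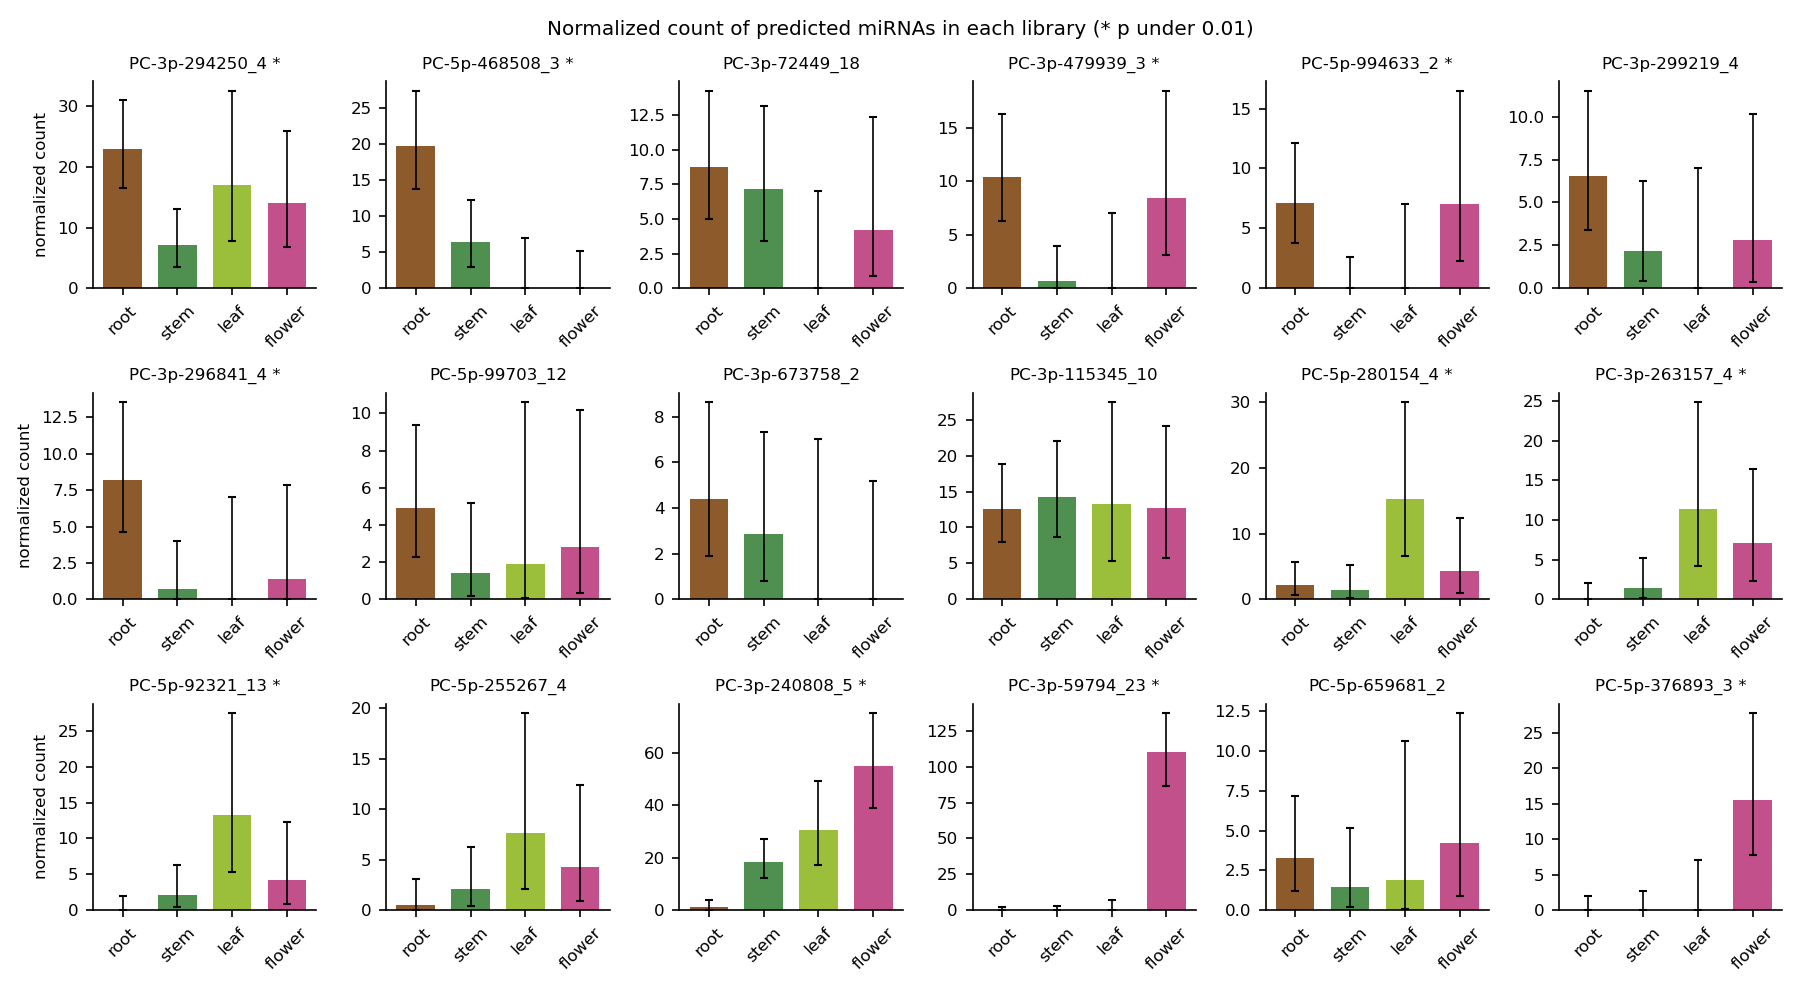
Normalized count (vertical axis, a scale of its own in each panel, starting at 0) of the 18 predicted miRNAs with at least 10 reads, in the root, stem, leaf and flower library; bars are the single value and lines its exact 95% Poisson interval, and a star marks p under 0.01. PC-3p-59794_23 and PC-5p-376893_3 were found in flower alone, whereas the 4 values of PC-3p-115345_10 lay between 12.6 and 14.3.

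The names highest in flower were led by precursor CV167603 (EST bases 43 to 281), whose reads were found in the flower library alone. PC-3p-59794_23 had 78 reads in flower and 0 in root, stem and leaf (chi-squared p = 4.70e-89, exact multinomial p = 2.58e-62). Its normalized count in flower was 109.9 (86.9 to 137). The value of 109.9 was 66.9-fold the one-sided floor of 3 reads in root, 51.3-fold that in stem and 19.3-fold that in leaf. These folds leave out the counting error of the flower value. PC-5p-376893_3, its opposite arm, had 11 reads in flower and 0 elsewhere (exact p = 2.62e-09). Both named regions of this precursor, joined by only 2 base pairs, thus showed the same pattern. The flower interval of each lay above the upper end of the two-sided interval of every other library, which was at most 7.01 (leaf).

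PC-3p-240808_5, on CV168598 and among the predicted miRNAs chosen for RT-qPCR in the study, was the most abundant name. It had 39 flower, 16 leaf, 26 stem and 2 root reads (chi-squared p = 3.39e-18, and the exact multinomial test in seeded draws gave the smallest p it can, 1e-04). Its normalized count was 54.9 (39.1 to 75.1), 30.4 (17.4 to 49.4), 18.6 (12.1 to 27.2) and 1.09 (0.133 to 3.95) in the same order. Root stood below the other libraries: flower was 50.2-fold higher than root, with a counting interval of 13.0 to 429, and stem 17.0-fold (4.25 to 148). Flower and leaf (1.81-fold, 0.986 to 3.46) and leaf and stem (1.64-fold, 0.821 to 3.17) could not be told apart by their counting error.

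The other names past the test and highest in flower had few reads. PC-5p-262178_4 had 7 reads in flower, 1 in leaf and 0 in root and stem (exact p = 7.00e-06). Flower and leaf could not be told apart by their counting error (5.19-fold, 0.666 to 234). PC-5p-485754_3 had 5 flower, 1 root, 1 stem and 0 leaf reads (exact p = 0.00560), and PC-3p-525182_3, its opposite arm on identical stretches of CV164680 and CV171934, had 4, 0, 1 and 0 (exact p = 0.00333). The last 2 no longer passed with the adjustment over all names, at 0.0169 and 0.0108, nor with depths from table reads (exact p = 0.227 and 0.0830).

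The names highest in root came from 3 precursors, and 2 of these gave both of their arms. On CV172499 (EST bases 184 to 365) PC-5p-468508_3 had 36 reads in root, 9 in stem and 0 in leaf and flower (chi-squared p = 8.21e-07, exact multinomial p = 1.53e-07). Its normalized count was 19.7 (13.8 to 27.3) in root and 6.43 (2.94 to 12.2) in stem, 3.06-fold apart with an interval of 1.45 to 7.23. The opposite arm PC-3p-294250_4, another of the names taken to RT-qPCR, had 42 root, 10 stem, 9 leaf and 10 flower reads. Its normalized counts were 22.99 (16.6 to 31.1), 7.15 (3.43 to 13.1), 17.1 (7.83 to 32.5) and 14.1 (6.76 to 25.9), so the root interval overlapped with leaf and flower. It passed with a chi-squared p of 0.00534 (exact multinomial p = 0.00350) and no longer with the adjustment over all names (0.0164).

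On CV163994 (EST bases 170 to 396) PC-5p-994633_2 had 13 reads in root, 5 in flower and 0 in stem and leaf (exact p = 0.000664). PC-3p-479939_3 had 19 root, 6 flower, 1 stem and 0 leaf reads (exact p = 0.000192). On both arms the normalized counts of root and flower lay close. They were 7.11 (3.79 to 12.2) against 7.04 (2.29 to 16.4) for the 5p name. For the 3p name they were 10.4 (6.26 to 16.2) against 8.45 (3.10 to 18.4). Stem had 0 and 1 reads and leaf had 0 on both arms. The count of 0 in leaf allows a normalized count of up to 7.01. This overlaps with the root and flower intervals on both arms, so these intervals do not set leaf apart. PC-3p-296841_4 on CV164108 had 15 reads in root, 1 each in stem and flower and 0 in leaf (exact p = 0.00167). Root and flower could not be told apart by their counting error (5.83-fold, 0.896 to 245). The root interval (4.59 to 13.5) also overlapped with that of 0 reads in leaf, which ends at 7.01. The 5p partner PC-5p-1579814_1 had 2 reads, both in root.

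Among the names highest in leaf, PC-5p-280154_4 on CV167132 had 8 leaf, 3 flower, 4 root and 2 stem reads (exact p = 0.000894). Its normalized count in leaf was 15.2 (6.57 to 29.98), 6.95-fold above root (1.86 to 31.5), but leaf and flower could not be told apart (3.60-fold, 0.864 to 21.1). With depths from clean reads (exact p = 0.0857) or from table reads (exact p = 0.0119) it did not pass. PC-3p-263157_4 on CV166823 had 6 leaf, 5 flower, 2 stem and 0 root reads (exact p = 1.61e-05), and PC-3p-131493_9 on CV168600 had 5 reads in leaf, 4 in flower and 0 in root and stem (exact p = 1.15e-05). For these 2 names leaf and flower lay within each other's intervals, and flower was the higher of both when scaled by clean reads. Their 5p partners PC-5p-3162097_1 and PC-5p-2347272_1 had 2 reads each.

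The remaining names highest in leaf belonged to a set of nested sequences, printed here because they share their 3′ end.
PC-5p-72144_18: tATACGTGgtttctgata
PC-5p-92321_13: tATATACGtggtttctgata
PC-3p-320069_4: tATATATAcgtggtttctgata
They are 18, 20 and 22 nt long, differ by 2 or 4 bases at the 5′ end, and so have different seeds. They were assigned to 4 ESTs that share at least 30 bases (CV170813, CV164822, CV162341 and CV171576), and the 18-nt sequence was called 5p on CV170813 and 3p on CV164822. PC-5p-92321_13, also one of the RT-qPCR names, had 7 leaf, 3 stem, 3 flower and 0 root reads (exact p = 2.47e-05). Its normalized count was 13.3 (5.35 to 27.4) in leaf, 6.21-fold above stem (1.42 to 37.2), but leaf and flower could not be told apart (3.15-fold, 0.719 to 18.9). The 18-nt sequence had 4.5 flower, 4 leaf, 0.5 stem and 0 root reads under its 5p name, and 5, 4, 0.5 and 0 under its 3p name (exact p = 9.24e-05 for each name). PC-3p-320069_4 had 1, 2, 3 and 0 (exact p = 0.0536). Over all 4 names there were 37.5 reads, 17 of them in leaf, 13.5 in flower, 7 in stem and 0 in root.

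Names with at least 10 reads that did not pass were led by PC-3p-115345_10 on CV171604, which was also among the RT-qPCR names. It had 20 stem, 7 leaf, 9 flower and 23 root reads, and its normalized counts were 14.3 (8.73 to 22.1), 13.3 (5.35 to 27.4), 12.7 (5.80 to 24.1) and 12.6 (7.98 to 18.9), with a chi-squared p of 0.979 (exact multinomial p = 0.974). The highest and lowest library differed 1.14-fold with an interval of 0.592 to 2.16. The paper describes the miRNAs chosen for RT-qPCR as differing between tissues, and its RT-qPCR results as matching the sequencing qualitatively. The RT-qPCR values were not compared with these reads. PC-3p-72449_18, on GW451945 and GW438678, had 16 root, 10 stem, 3 flower and 0 leaf reads (exact p = 0.110). With depths from clean reads (exact p = 0.00295) or from table reads (exact p = 0.000637) it passed, highest in root. PC-5p-659681_2 and PC-3p-299219_4, the arms of CV165835, had 6, 2, 1 and 3 reads and 12, 3, 0 and 2 reads in root, stem, leaf and flower (exact p = 0.623 and 0.0987). PC-3p-673758_2 had 8, 4, 0 and 0 (exact p = 0.191), PC-5p-99703_12 had 9, 2, 1 and 2 (exact p = 0.392), and PC-5p-255267_4 had 1, 3, 4 and 3 (exact p = 0.0177). With depths from table reads PC-3p-299219_4 (exact p = 0.00646) and PC-3p-673758_2 (exact p = 0.00541) passed, both highest in root. Of the rarer names not described elsewhere, PC-5p-1027277_2 and PC-3p-292906_4 on CV167790 had 4 and 9 reads, and PC-3p-3174174_1 on CV170813 had 1.5 reads, all in flower; none of them passed.

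The arms of a precursor were compared next, since the library factor cancels within a precursor. Reads were more frequent on the 3p arm in 13 of the 19 precursors with both names, on the 5p arm in 5, and equal in 1. The 3p names had 452 reads and the 5p names 195. The exact 95% Clopper-Pearson interval of the 3p share lay above 50% in 7 precursors and below it in 2. PC-3p-240808_5 had 83 of 84 reads of CV168598 (98.8%, 93.5 to 99.97), since PC-5p-1192725_1 had 1 read, in leaf. On CV171604 the 3p name had 59 reads and PC-5p-3088866_1 had 5, namely 3 in root and 1 each in stem and flower, a 3p share of 92.2% (82.7 to 97.4). CV167603 had a 3p share of 87.6% (79.0 to 93.7). The opposite was found on CV167132, where PC-5p-280154_4 had 17 reads and PC-3p-2674449_1 had 1, in stem, a 3p share of 5.56% (0.141 to 27.3), and on CV164726, where PC-5p-255267_4 had 11 reads and PC-3p-2980871_1 had 2, from stem and flower (15.4%, 1.92 to 45.4). CV163994 and CV165835 were close to even, with 3p shares of 59.1% (43.2 to 73.7) and 58.6% (38.9 to 76.5). On CV165955 PC-5p-1266277_1 had 6 reads, 5 in root and 1 in stem, beside 12 on the 3p arm.

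**Figure D2:**
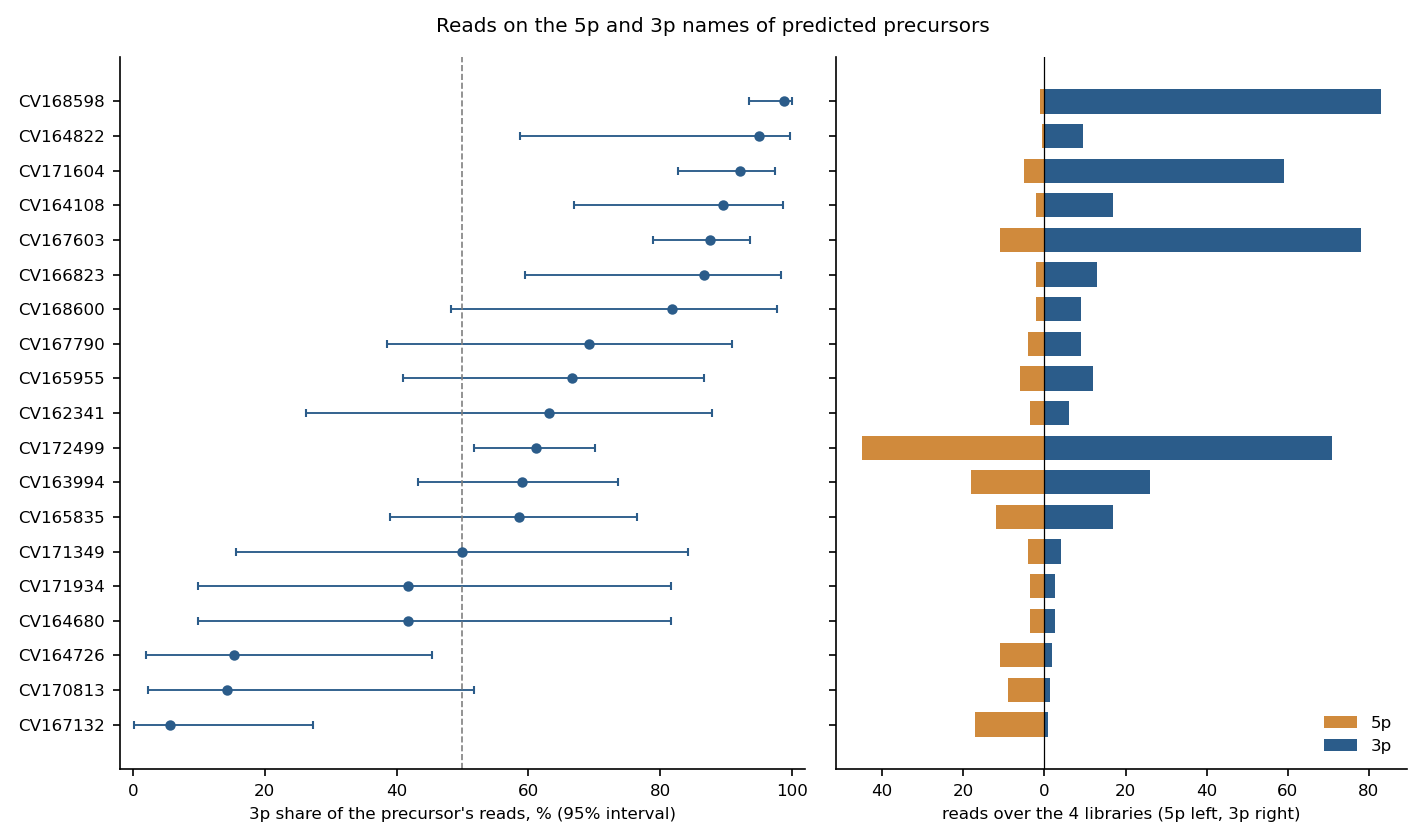
Left, share of reads that lay on the 3p name (percent, with the exact 95% Clopper-Pearson interval; the dashed line is 50%); right, the reads on the 5p name (to the left) and the 3p name (to the right) over the 4 libraries, for the 19 precursors with 2 names. CV168598 and CV171604 lay at 98.8% and 92.2%, CV172499 at 61.2%, and CV167132 at 5.56%.

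The arm share differed between libraries on 1 of 18 predicted precursors tested, CV172499 (exact conditional test, two-sided, p = 0.000786), where 20.7% of all precursors with reads on both arms passed. After Benjamini-Hochberg adjustment over all these precursors its p was 0.00570. The 3p share was 53.8% (42.2 to 65.2) in root and 52.6% (28.9 to 75.6) in stem. In leaf 9 of 9 reads (66.4 to 100%) and in flower 10 of 10 reads (69.2 to 100%) lay on the 3p arm. The 5p arm was thus read in root and stem only, and the 3p arm in each library. No other predicted precursor passed at p under 0.05, and only 4 had at least 10 reads on each arm. CV167603 had reads in 1 library and gave no test. Of 9 precursors with at least 3 reads on each arm, the arms had their highest normalized count in the same library in 5.

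Whether the arms face each other was read from the deposited secondary structures. Most did not: in 12 of the 19 precursors with both names no base of the 5p region was paired with the 3p region, in 5 there were 2 to 8 such pairs, and in 2 at least 12. Of 21 other precursors in the table with both arms named, 20 had at least 12 pairs between the arms and 1 had none, with a median of 17 beside 0 in the predicted precursors. Those other precursors were found by their likeness to known miRNA hairpins, so the groups were not chosen alike. Only 1 of the 21 lay on an EST of the plant. Per the paper's methods, reads were also matched to miRBase precursors of other species. When the precursors were folded again with RNAfold, an alternative added after the data were seen, 13 of 19 had no pair between the regions and 2 had at least 12.

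The 2 precursors with facing arms are printed with the named regions in capitals.
CV172499: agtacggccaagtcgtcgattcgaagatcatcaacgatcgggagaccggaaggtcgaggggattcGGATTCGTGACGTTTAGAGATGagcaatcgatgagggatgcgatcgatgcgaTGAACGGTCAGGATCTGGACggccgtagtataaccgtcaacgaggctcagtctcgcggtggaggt
CV171604: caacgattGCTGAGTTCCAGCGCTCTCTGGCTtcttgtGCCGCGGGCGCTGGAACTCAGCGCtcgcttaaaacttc
In CV171604 (EST bases 25 to 100) 21 pairs joined the 24-nt 5p and the 24-nt 3p region, which lie 6 nt apart. The 3p region reached 2 nt past the partner of the first 5p base, and the 5p region 1 nt past the partner of the first 3p base, so both ends had short 3′ overhangs. In CV172499 15 pairs joined the regions of 22 and 20 nt across 30 nt, and the corresponding overhangs were 4 and 6 nt. CV172499 is also the precursor with the most reads over both arms together, 116, of which 45 lay on the 5p arm and 71 on the 3p arm. Both precursors also have a forward reading frame without a stop codon through their whole length, as 12 of the 24 predicted precursors do.

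A precursor without facing arms, CV168598 (EST bases 281 to 468), and the flower precursor CV167603, with 2 pairs between its regions, are shown for comparison.
CV168598: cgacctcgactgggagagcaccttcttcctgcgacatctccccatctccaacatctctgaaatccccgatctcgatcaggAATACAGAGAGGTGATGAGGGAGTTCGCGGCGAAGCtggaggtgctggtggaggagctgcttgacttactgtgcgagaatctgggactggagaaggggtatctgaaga
CV167603: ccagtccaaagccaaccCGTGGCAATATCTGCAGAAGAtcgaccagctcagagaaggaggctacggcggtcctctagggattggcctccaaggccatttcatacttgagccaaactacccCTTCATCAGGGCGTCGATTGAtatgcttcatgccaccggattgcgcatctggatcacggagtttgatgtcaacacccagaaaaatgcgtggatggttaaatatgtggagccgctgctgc
In CV168598 the 5p region ends on the base where the 3p region begins, at base 98 of the precursor, and both regions paired with earlier bases, so that both lay on the 3′ side of a stem. Over all precursors, 5 of 21 regions called 3p paired mostly with later bases, as a 5′ arm does, and 3 of 22 regions called 5p paired mostly with earlier bases. CV166823, CV164108, CV164822, CV162341 and CV168600 held those 3p regions.

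**Figure D3:**
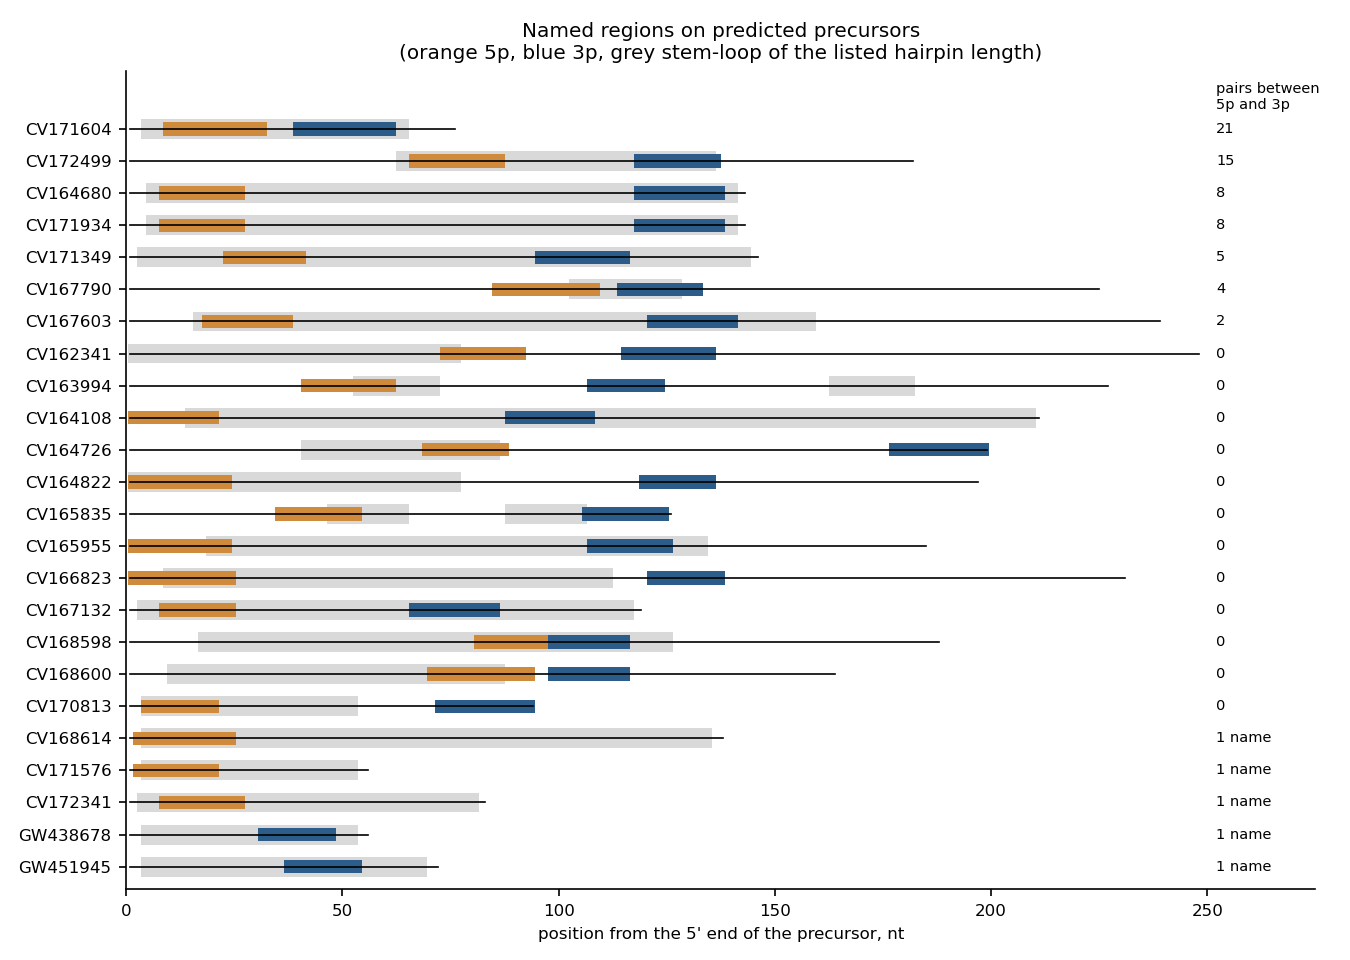
The 24 predicted precursors drawn from their 5′ end (horizontal axis, nt), with the 5p region in orange, the 3p region in blue and, in grey, each stem-loop whose closing pair spans the listed hairpin length; numbers on the right count the base pairs between both regions in the deposited structure. CV171604 and CV172499 have 21 and 15 pairs, and 12 precursors have 0.

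For their whole listed length the predicted precursors had a less negative folding energy than the other precursors, 578 of which are not on an EST of the plant. The precursors were 56 to 248 nt long (median 155) with a GC content of 29.9% to 62.6% (median 44.6%). The folding free energy (dG) ran from -85.7 to -14.3 kcal/mol with a median of -46.6, against -53.9 over the 583 other precursors, whose median length was 125 nt. Per 100 nt the medians were -27.1 and -42.8 kcal/mol. The minimal folding free energy index, which divides dG per 100 nt by the GC percent and is usually asked to exceed 0.85 for a miRNA precursor, had a median of 0.646 and reached 0.85 in 2 of 24 predicted precursors, CV171604 (0.995) and CV172341 (0.957). Over the other precursors its median was 0.942 and 75.8% reached 0.85. The 5 other precursors that lie on ESTs of the plant, those of miR156 and miR164, had a median of 0.666 and a range of 0.6004 to 0.925. Their median dG per 100 nt was -35.4 kcal/mol, from -37.8 to -31.0. These indices and the values per 100 nt were computed over the whole listed precursor. The listed hairpin length had a median of 77.5 nt in the predicted precursors, beside 155 nt for the whole. In the 583 other precursors it was 119 nt beside 125 nt. The groups thus differ in how much of the sequence lies outside the listed hairpin. The effect of this on the indices was not tested.

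**Figure D4:**
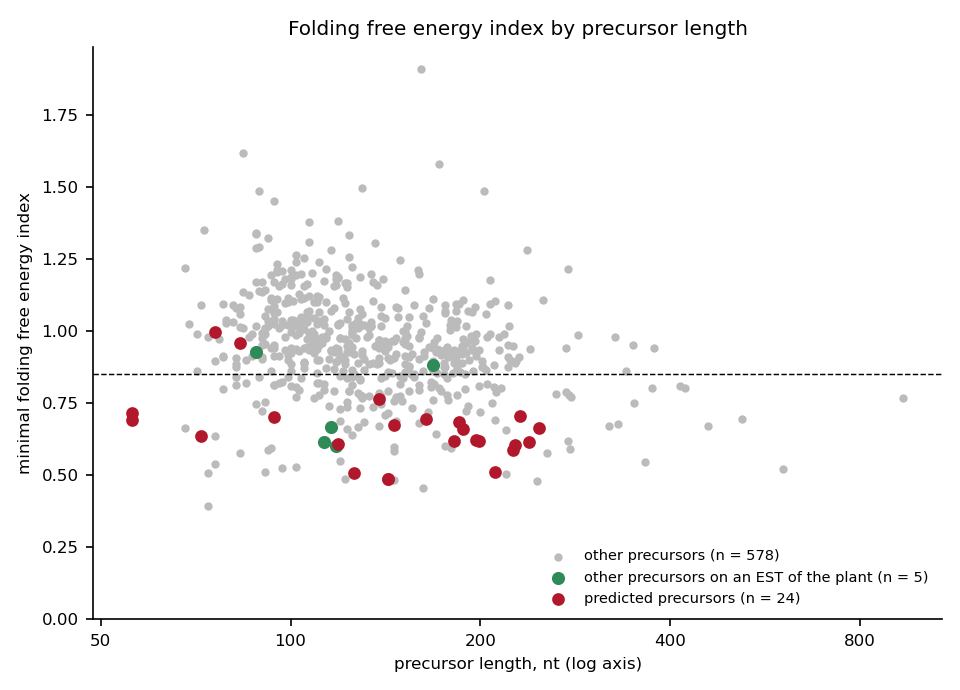
Minimal folding free energy index (vertical axis, no unit) by precursor length (horizontal log axis, nt), 1 point per precursor: 24 predicted precursors in red, 5 others on ESTs of the plant in green and 578 others, not on an EST of the plant, in grey; the dashed line is 0.85. Of the predicted precursors 2 lay above the line, CV171604 at 0.995 and CV172341 at 0.957.

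The listed hairpin length is shorter than the precursor, with a median of 77.5 nt and a range of 19 to 197. Its exact definition is not given. In each of the 24 structures at least 1 base pair spans exactly this length, and in CV165835 and CV163994 2 base pairs do. Taking such a pair as the close of the listed hairpin is therefore an assumption. Such a stem-loop enclosed both named regions in 7 of the 19 precursors with 2 names, 1 region in 5, and none wholly in 7. The criteria stated with the table ask for a hairpin of at least 50 nt. Whether the listed length is the one meant there is not stated. The listed length was below 50 nt in 4 precursors: CV165835 with 19 nt, CV163994 with 20, CV167790 with 26 and CV164726 with 46. The criterion of at most -15 kcal/mol was missed by GW438678, with -14.3. The criteria also ask for at least 12 pairs in the mature region, and 9 of 22 regions called 5p and 4 of 21 called 3p had fewer than 12 paired bases. A 5p region had a median of 61.3% of its bases paired and a 3p region 80%. The least paired was PC-5p-1579814_1, with 4 of 21 bases.

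Some precursors are not independent of each other. CV164680 and CV171934 are identical over their 143 nt, GW438678 lies within GW451945 over 56 nt, and CV164822 is contained in CV162341 over its 197 nt. Joined by a shared run of at least 20 nt, the 24 precursors formed 19 groups. CV162341 and CV164822 had the same stretch but different regions named 5p: PC-5p-1093449_2, with 0 root, 1.5 stem, 0 leaf and 2 flower reads, and PC-5p-1795513_1, with 0.5 reads in stem.

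The read differed from the EST by 1 base for 10 of the 40 names, and by none for the others. With the EST base first, the position counted from 1 at the 5′ end of the miRNA, and then the base of the read, these included A8C in PC-3p-59794_23, G22T in PC-5p-468508_3, G8C in PC-3p-115345_10, C3A in PC-3p-72449_18, T3C in PC-3p-296841_4 and A12C in PC-3p-131493_9. The names were 18 to 25 nt long, most often 20 nt (10 names), then 18 nt (7) and 21 nt (6), whereas 36.6% of the other names had 21 nt. Of the 40, 11 started with T (U in RNA), 10 with A, 10 with C and 9 with G, where 45.3% of the other names started with T. All 3 names of 25 nt and 4 of the 5 names of 24 nt were 5p names.

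The degradome, which reads the 5′ ends of cut transcripts, listed 3 predicted names with 17 of its 82 pairs of a miRNA and an EST. It is 1 library with no control, and the 17 target ESTs of the predicted names are not annotated in the sources used here. The alignment score is a penalty for mismatches, and the category runs from 0, where the site is the single highest position of the transcript, to 4, where it has 1 read. No predicted pair was in category 0 or 1, 16 were in category 2 and 1 in category 3. Of the 17 pairs, 7 (41.2%) had at least 10 raw reads at the site, where 32.9% of all pairs did.

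Those 7 pairs all belonged to PC-5p-434679_3, whose sequence is given because its sites had the most degradome reads of the predicted names.
PC-5p-434679_3: cCGTCTGCttgcttgcctg
This name had only 4 small RNA reads, all in root, and its partner PC-3p-1488134_1 had 1 in root, 2 in stem and 1 in flower. Its sites had 597 to 620 raw reads, on CV167882 (601), CV164364 (613), CV168477 (620), CV167856 (607), CV170990 (601), CV167353 (615) and CV167243 (597). Each raw number was 10 times the divided one, since the authors divided these reads over 10 ESTs, so divided reads were 59.7 to 62.0 and the 7 sites share reads. Each pair had an alignment score of 4 and a CleaveLand p-value of 0.99992, the probability of such a site by chance.

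PC-3p-72449_18 had 9 pairs, and its sequence is AT-rich.
PC-3p-72449_18: tTATCTTTtctgtttaac
On CV164786 it had 5 raw reads, which were not divided, a score of 3 and a CleaveLand p-value of 0.666. The other 8 pairs had 4 raw reads each, divided over 8 ESTs to 0.5, a score of 4 and a CleaveLand p-value of 0.999. PC-3p-2674449_1, a name with 1 small RNA read, had 1 pair on CV166711 with 5 raw and 1.25 divided reads in category 3 with a score of 3.5 and a CleaveLand p-value of 0.582. The cut lay opposite position 10 of the miRNA in 9 pairs and opposite position 11 in 8, counted from the end of the aligned stretch, and in 16 pairs that stretch was longer or shorter than the miRNA. Of the 17 predicted pairs 15 had a p of at least 0.9, and 46.2% of the 65 other pairs did. None of the 17 target ESTs was a predicted precursor, and none was listed for another miRNA.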

How the data were processed

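Small RNA libraries were made from 4 tissues, 1 each, and a degradome library from their mixture; tissues were taken from the sample labels. Per the labels the authors used ACGT101-miR 4.2: adapters and reads of other RNA classes were removed, and reads of 18 to 25 nt not found in known pre-miRNAs were matched to ESTs whose surroundings may fold into a hairpin. The deposited reads per entry are estimated counts, since the authors divided a read over the entries it matches. The deposited normalized counts are a signal, reads times 1 factor per library. The authors also list the length, the GC content in percent and dG, entered here as a score. The deposited degradome table, per the labels from ACGT301-DGE 1.0 and CleaveLand 3.0, holds raw reads as a count, those reads divided over matching ESTs as a signal, and for each pair a category, an alignment score and a p-value not described as adjusted. In the list of miRNAs 6 lines are not used here.

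All reads of a name were added up, and were rounded for tests only. Each name's reads were tested against the inverse of the factors, by the chi-squared test (3 degrees of freedom) if each expected count was at least 5 and the exact multinomial test otherwise, over all names of the table, at p = 0.01 as in the study's methods. Arms were tested by the exact conditional (Fisher-Freeman-Halton) test over all precursors with reads on both arms. These tests compare libraries, not tissues, and were checked on simulated data. Reads per library in the table were 238148 to 499434. Folds between libraries have exact conditional intervals on rounded reads. Base pairs between arms were read from the deposited structures, each region being placed on the EST with the fewest mismatches. Names were described in full with at least 10 reads, as the opposite arm of such a name, in the degradome table or in the study's RT-qPCR. Members, lists and tests were chosen with earlier results of these data known. Indices, shared runs and seeds were chosen after the values were seen. Alternatives covered the scaling, the adjustment, the test, minimum reads, rounding and the degradome thresholds. Python 3.11.15, scipy 1.17.1, pandas 2.3.3 and RNAfold 2.7.2 were used.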

Additional observations from a re-analysis of the deposited data

How the results depend on the processing

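The 17 predicted names past the library test became 14 with Benjamini-Hochberg adjustment over all names, 16 per distinct sequence, 17 with the exact multinomial test for each name and with depths from clean reads or from table reads, and 11 with at least 10 reads. Of the names highest in root, 5 became 8 with the share of table reads; of those highest in leaf, 6 became 1 with clean reads and 3 with at least 10 reads; of those highest in flower, 6 became 10 with clean reads and 3 with at least 10 reads; for stem the count was 0 in each of these settings. With clean reads 4 names moved from leaf to flower and still passed: PC-3p-263157_4 (p of the exact test 0.00107), PC-5p-72144_18 and PC-3p-72144_18 (0.00139 each) and PC-3p-131493_9 (0.000337). Among the 24 names that passed or had at least 10 reads, 3 lost their call with the adjustment, 1 with clean reads and 3 with table reads, and 1 and 3 gained one with clean and table reads. The precursor with a different arm share was 1 in each setting. Of the 7 degradome pairs with at least 10 raw reads, 7 had at least 10 divided reads and 0 were in category 0 or 1, and 9 pairs had at least 5 raw reads. The causes of these shifts in scaling were not tested. Depth limits these values: 22 of the 40 names had under 10 reads and 8 had under 3, so that a count of 0 often cannot be told from a low level. No paired analysis was possible because each tissue has 1 library.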

Other observations

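A forward reading frame without a stop codon ran through the whole precursor in 12 of 24 predicted precursors, and one on the reverse strand in 14. In the 583 other precursors 36.7% had such a frame forward and 43.9% on the reverse strand. Open frames are more frequent in short sequences, and the groups were not matched for length. The median was 155 nt for the predicted precursors and 125 nt for the others. These shares are given as values only and their difference was not tested. Folding with RNAfold gave a dG of -16.3 kcal/mol for GW438678, which is listed at -14.3, and kept 12.5% of the listed base pairs in CV168600 and 12.9% in CV167790, beside 100% in CV171604, and 75.9% in CV172499.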
